A study of Ictidomys tridecemlineatus with 10 samples.

Results

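Receptors for the peptides amylin, CGRP and adrenomedullin are built from 5 genes, Calcr, Calcrl, Ramp1, Ramp2 and Ramp3. They were taken by gene symbol from a table of 25964 genes, and all 5 were listed in it. The table came from polyadenylated RNA of the subfornical organ in a hibernating rodent, the thirteen-lined ground squirrel (Ictidomys tridecemlineatus), with 5 libraries from each of 2 states. Active animals were not hibernating, while animals in interbout arousal (IBA) were in a hibernation-season return to a warm body between bouts of torpor. Nothing else about the animals, such as age, sex, hydration or season of sampling, was given in the sources used here, and no drug or genetic change was named for either state. The organ was cut from brain slices by hand, so a library holds every cell type in the piece, and fewer cells of a type and less RNA per cell cannot be told apart.

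Calcr encodes the calcitonin receptor and Calcrl the calcitonin receptor-like receptor, both G protein-coupled receptors that act mainly through cAMP. RAMPs are proteins with a single membrane span that pair with them and set which peptide is bound. Calcr alone binds calcitonin, and with a RAMP it becomes an amylin receptor. Calcrl with Ramp1 is the CGRP receptor, and with Ramp2 or Ramp3 it is an adrenomedullin receptor. The subfornical organ lies outside the blood-brain barrier and drives thirst, and in rats circulating amylin excites its neurons and elicits drinking. Endothelium is a well-known site of Calcrl and Ramp2, whose products act together in vessel growth and barrier function. No sequence of these genes is shown, since none was used here.

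No member passed the test between the states, and the largest differences were opposite in sign for the amylin-type receptor and for one of its partners. Ramp3 stood 1.56-fold higher in IBA (95% interval 1.17 to 2.07) and Calcrl 1.35-fold higher (0.994 to 1.84). Calcr stood at 0.620 of its Active level (0.349 to 1.10). Ramp2 and Ramp1 stood at 1.20 and 1.04 of their Active levels (0.893 to 1.60 and 0.769 to 1.40). These folds are IBA over Active on the scale of normalised CPM (reads scaled to library size) plus 0.5, from a limma fit over all genes averaging 1 CPM or more, which all 5 members reached. Of the 5, 0 had an adjusted p under 0.05, where 0.401% of the 15445 genes tested did (0.220% higher in IBA). In 0 of the 5 were the states free of overlap, as they were in 6.38% of genes (3.59% higher in IBA). By unadjusted p under 0.05, 1 of the 5 passed (Ramp3), where 23.9% of all genes did (12.7% higher in IBA). By DESeq2 on recovered reads 1 member passed after adjustment, again Ramp3, where 9.93% of genes did. The members' median log2 difference was 0.26, with 4 of 5 higher in IBA, beside 0.03 over all genes tested, of which 8355 were higher and 7090 lower.

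**Figure D1:**
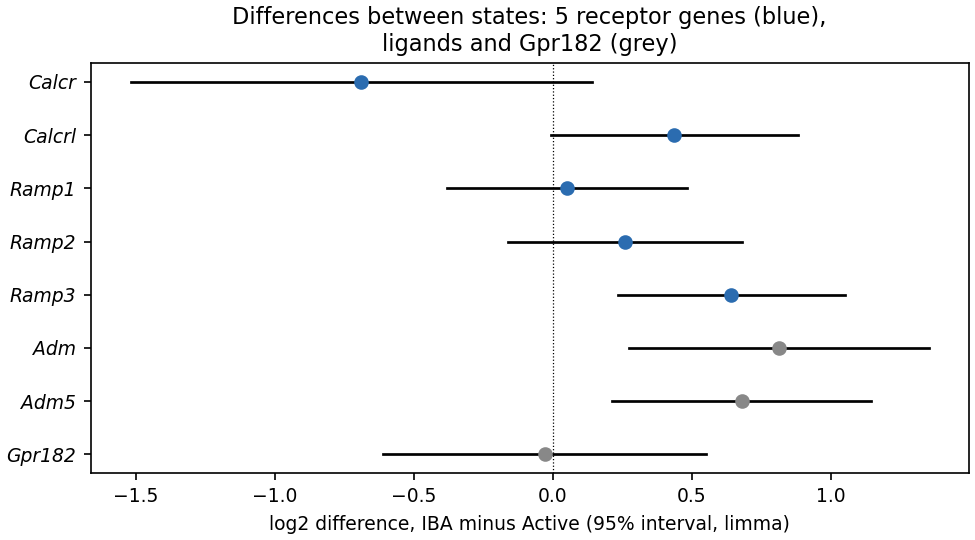
Log2 difference of IBA minus Active (x axis) with its 95% interval from limma for the 5 receptor and RAMP genes (blue) and for Adm, Adm5 and Gpr182 (grey). The interval of Ramp3 runs from 0.23 to 1.05 and lies above 0, that of Calcr runs from -1.52 to 0.14, and those of Calcrl, Ramp1 and Ramp2 span 0.

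The libraries held 20993093 to 30713168 reads in Active and 24195342 to 35382203 in IBA. Markers of the organ's neurons were present: Agtr1, the angiotensin II receptor gene, averaged 47.2 CPM and Etv1 averaged 122 CPM over the 10 libraries. These were the highest of the markers listed: Foxp2 averaged 9.60, Pdyn 2.99, Nos1 2.76 and Rxfp3 1.51 CPM. Rxfp1, another marker of these neurons, averaged 0.163 CPM and was at 0 in 2 libraries. Active replicate 4 stood apart in choroid plexus markers, whose summed level was 21636 CPM there and 955 to 3578 CPM in the other Active libraries (1060 to 5056 CPM in IBA). That tissue borders the organ.

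Calcr, the receptor for calcitonin and amylin, varied most between libraries among the 5 genes on the log2 scale in both states. It stood at 1.49, 3.74, 3.26, 1.01 and 5.63 CPM in Active replicates 1 to 5 and at 1.21, 2.04, 1.17, 0.690 and 2.66 CPM in IBA replicates 1 to 5. Active replicates 2, 3 and 5 were above every IBA library, Active replicates 1 and 4 fell within the IBA range, and all 5 IBA libraries were below the Active median of 3.26 CPM. These values rest on 17 to 182 reads a library. The exact Poisson 95% interval was 0.642 to 1.52 CPM in Active replicate 4 and 4.84 to 6.51 CPM in Active replicate 5, so the spread within Active was wider than counting error. The means were 3.03 ± 1.85 CPM in Active and 1.55 ± 0.786 CPM in IBA (SD, n = 5 each), a log2 difference of -0.69 (SE 0.38, adjusted p = 0.290 in limma).

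That difference depended on single libraries of either state. Without Active replicate 5, which held the most Calcr, the log2 difference was -0.45 (95% interval -1.24 to 0.35). Without Active replicate 4, which held the least Calcr of the Active libraries and the most choroid plexus RNA, it was -0.95 (-1.71 to -0.19). The adjusted p was 0.545 and 0.151 in these fits. Without IBA replicate 4 the log2 difference was -0.51 (-1.38 to 0.35), and without IBA replicate 5 it was -0.87 (-1.73 to -0.001). The adjusted p in limma was then 0.459 and 0.214. The authors' deposited table gives a log2 fold change of 0.97 for Calcr, coded Active minus IBA, with an FDR of 0.314. The average level in that table differs from that of the 10 libraries for some of these genes (Calcr 0.70 and 1.29, Ramp3 5.49 and 5.02 on the log2 CPM scale), so the fold changes, p and FDR quoted from it may not rest on these 10 libraries alone. A pseudogene that overlaps Calcr in the RefSeq list of assembly mIctTri1.hap1, LOC101970221, had at most 1 read in any library. In the same list 1 gene overlaps Calcrl (LOC144365583) and 1 overlaps Ramp1 (LOC120883732). Their reads were not analysed here, and with no strand setting given, reads shared with them cannot be told apart.

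Calcrl, the receptor that CGRP and adrenomedullin share, leaned the other way. It stood at 8.89, 13.8, 17.2, 11.7 and 14.0 CPM in Active replicates 1 to 5 and at 21.4, 13.9, 22.9, 19.2 and 12.6 CPM in IBA replicates 1 to 5. IBA replicates 1, 3 and 4 were above every Active library, and IBA replicates 2 and 5 lay among them. The means were 13.1 ± 3.08 and 18.0 ± 4.55 CPM (SD, n = 5 each), a log2 difference of 0.44 (SE 0.21, 95% interval -0.01 to 0.88, adjusted p = 0.217 in limma). The authors' deposited table gives -0.46 for Active minus IBA with an FDR of 0.418.

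Ramp1, the RAMP of the CGRP receptor, had nearly the same mean in both states and a different spread. It stood at 275, 289, 227, 233 and 258 CPM in Active replicates 1 to 5 and at 367, 296, 185, 183 and 354 CPM in IBA replicates 1 to 5. IBA replicates 1, 2 and 5 were above every Active library and IBA replicates 3 and 4 below every one, so that no IBA library fell inside the Active range. At least 2 IBA libraries on each side and none inside was found for 0.511% of the genes tested. The SD on the log2 scale was 0.49 in IBA and 0.15 in Active, a ratio of 3.30, and 1.83% of genes had a ratio at least as large (median over all genes 0.926). The spread was not tested, and this pattern was picked out after the values were seen. The means of 256 ± 26.5 and 277 ± 89.1 CPM (SD, n = 5 each) gave a log2 difference of 0.05 (SE 0.20, 95% interval -0.38 to 0.48, adjusted p = 0.896 in limma). Its sign turned to -0.07 without IBA replicate 1, to -0.05 without IBA replicate 5 and to -0.01 when all libraries were given one total.

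**Figure D2:**
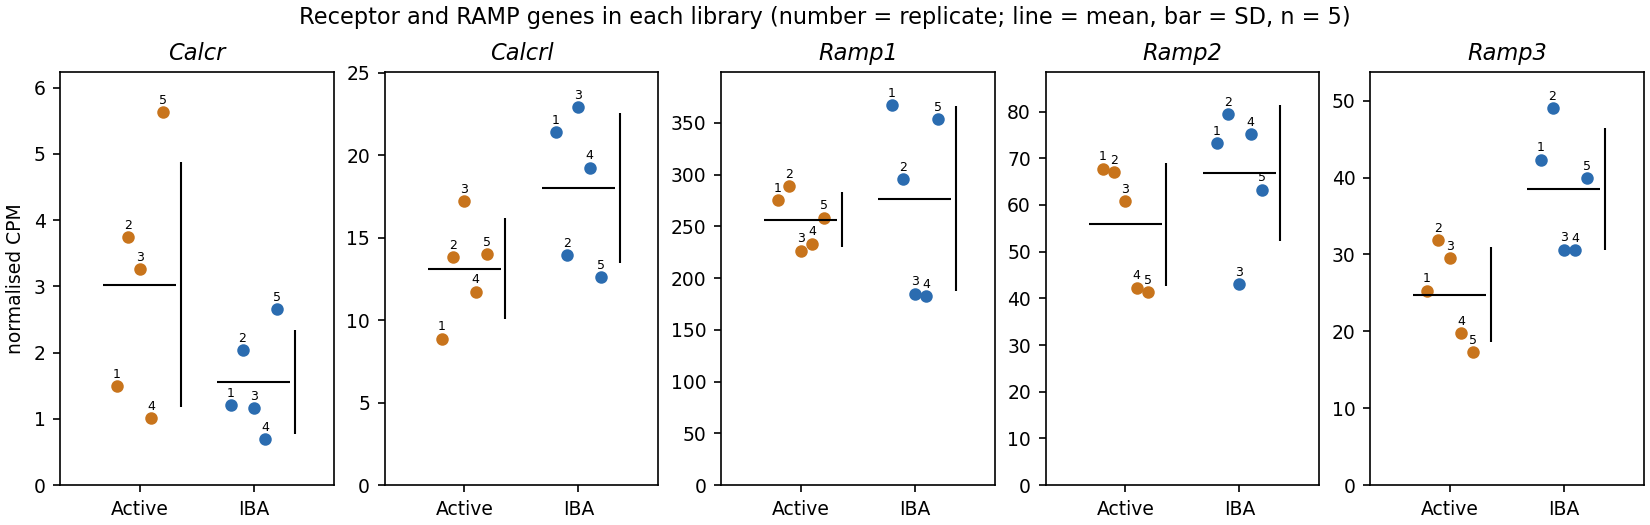
Normalised CPM (y axis, from 0, own scale per panel) of the 5 genes in each of the 10 libraries, with the replicate number at each point, the mean as a line and the SD as a bar (n = 5 per state). Ramp3 in IBA runs from 30.6 to 49.1 CPM against 17.3 to 31.8 CPM in Active, and the 5 IBA points of Ramp1 lie above or below all Active points.

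Ramp2, the partner of Calcrl in the adrenomedullin receptor of vessels, stood at 67.8, 67.0, 60.8, 42.3 and 41.3 CPM in Active replicates 1 to 5 and at 73.2, 79.5, 43.1, 75.2 and 63.3 CPM in IBA replicates 1 to 5. Active replicates 4 and 5 and IBA replicate 3 were low and the other 7 libraries lay between 60.8 and 79.5 CPM. The means were 55.8 ± 13.1 and 66.8 ± 14.6 CPM (SD, n = 5 each), a log2 difference of 0.26 (SE 0.19, 95% interval -0.16 to 0.68, adjusted p = 0.437 in limma). Leaving out the lowest Active libraries must shrink the difference. It was 0.01 without Active replicates 4 and 5, 0.17 without Active replicate 4 and 0.16 without Active replicate 5. Without the low IBA replicate 3 it rose to 0.41.

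Ramp3, which can join either receptor, was the member with the clearest lean. It stood at 25.3, 31.8, 29.5, 19.8 and 17.3 CPM in Active replicates 1 to 5 and at 42.3, 49.1, 30.6, 30.6 and 40.0 CPM in IBA replicates 1 to 5. IBA replicates 1, 2 and 5 were above every Active library, and IBA replicates 3 and 4 were above all Active libraries but replicate 2. The means were 24.7 ± 6.18 and 38.5 ± 7.95 CPM (SD, n = 5 each), a log2 difference of 0.64 (SE 0.19, 95% interval 0.23 to 1.05, unadjusted p = 0.00501, adjusted p = 0.0894 in limma). It was higher in all 24 alternative settings, with a log2 difference of 0.39 to 0.74 and an adjusted p of 0.0310 to 0.338. Without Active replicates 4 and 5 the difference was 0.39 (95% interval 0.01 to 0.77). The authors' deposited table gives -0.64 for Active minus IBA with a p of 0.168 and an FDR of 0.463.

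The balance between the genes was read as log2 ratios in each library, where the unknown transcript lengths cancel from one library to the next. Ramp3 over Calcr was 3.69, 2.93, 2.99, 3.74 and 1.54 in Active replicates 1 to 5 and 4.65, 4.29, 4.22, 4.71 and 3.68 in IBA replicates 1 to 5. Only IBA replicate 5 fell among the Active values, and the mean was 2.98 ± 0.891 in Active libraries and 4.31 ± 0.412 in IBA libraries (SD, n = 5 each, no test). The difference of 1.33 was 0.97 without Active replicate 5. Ramp1 over Calcr had means of 6.36 ± 0.804 and 7.10 ± 0.413, with Active replicates 1 and 4 inside the IBA range.

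Relative to Calcrl the RAMPs did not shift beyond their spread. The log2 ratio to Calcrl was 4.26 ± 0.427 in Active and 3.88 ± 0.755 in IBA for Ramp1, 2.04 ± 0.524 and 1.87 ± 0.612 for Ramp2, and 0.883 ± 0.448 and 1.09 ± 0.598 for Ramp3 (SD, n = 5 each). Among the RAMPs, Ramp3 over Ramp2 was -1.40, -1.06, -1.03, -1.08 and -1.23 in Active replicates 1 to 5 and -0.78, -0.69, -0.48, -1.28 and -0.66 in IBA replicates 1 to 5. Here 4 of 5 IBA libraries were above every Active one, and IBA replicate 4 was within the Active range. Ramp3 held 5.46% to 9.30% of the reads of the 3 RAMP genes in Active and 8.74% to 11.8% in IBA, shares that also depend on transcript length. Ramp1 over Ramp2 was 2.22 ± 0.312 and 2.01 ± 0.466. Its ranges overlapped in part, with IBA replicate 4 below every Active library and Active replicate 5 above every IBA one. IBA replicate 2 (1.8884) was nearly level with the lowest Active library, replicate 3 (1.8887).

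**Figure D3:**
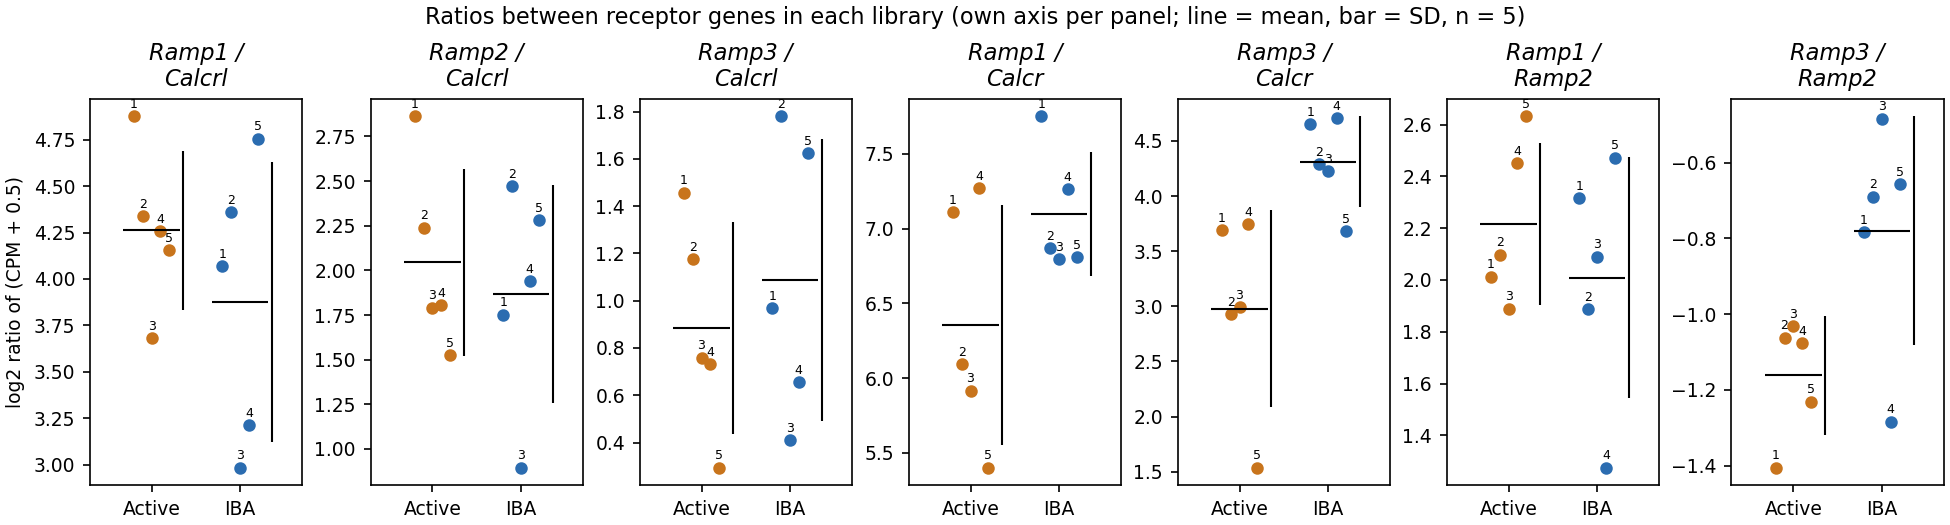
Log2 ratio of (CPM + 0.5) between pairs of the 5 genes (y axis, own scale per panel) in each of the 10 libraries, with replicate numbers, the mean as a line and the SD as a bar (n = 5 per state). Ramp3 over Calcr and Ramp3 over Ramp2 lie higher in 4 of 5 IBA libraries than in any Active library, and the other ratios overlap more.

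Among the ligands, adrenomedullin genes were detected and the amylin gene was not above its detection limit. Adm, which encodes adrenomedullin, stood at 10.4, 30.4, 15.5, 15.6 and 12.6 CPM in Active replicates 1 to 5 and at 26.6, 36.8, 23.2, 22.8 and 33.7 CPM in IBA replicates 1 to 5. All IBA libraries were above the Active libraries but replicate 2, which reached 30.4 CPM. The means were 16.9 ± 7.85 and 28.6 ± 6.33 CPM (SD, n = 5 each), a log2 difference of 0.81 (SE 0.25, 95% interval 0.27 to 1.35, adjusted p = 0.0946 in limma). Without Active replicate 2 it was 1.04, the highest of 24 alternative settings, with an adjusted p of 0.0508. Without Active replicate 1 it was 0.67, the lowest of them, with an adjusted p of 0.156. The adjusted p ran from 0.0508 to 0.322 over the 24 settings.

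Adm5, a further gene of the adrenomedullin family, stood at 1.07, 0.796, 1.00, 1.15 and 0.990 CPM in Active replicates 1 to 5 and at 1.94, 3.15, 1.51, 2.15 and 1.15 CPM in IBA replicates 1 to 5. The states did not overlap, as in 6.38% of all genes tested, but the nearest libraries, Active replicate 4 and IBA replicate 5, held 26 and 32 reads and 1.146 and 1.150 CPM. The log2 difference was 0.68 (SE 0.21, 95% interval 0.21 to 1.14, adjusted p = 0.101 in limma). DESeq2, by which 9.93% of genes passed, gave an adjusted p of 0.0484 (0.0484 to 0.287 over 23 alternative settings). Adm2, which encodes intermedin, lay under the filter, with means of 0.558 ± 0.0626 CPM for Active and 0.604 ± 0.372 CPM for IBA (SD, n = 5 each), and a two-sided exact permutation test gave p = 1. Its IBA libraries lay outside the Active range of 0.485 to 0.610 CPM, with replicates 2 and 5 above and replicates 1, 3 and 4 below, on 7 to 28 reads a library. That pattern was found for 0.511% of the genes tested, which do not include Adm2. IBA replicate 1 was at 0.470 CPM (Poisson 95% interval 0.269 to 0.764) and Active replicate 4 at 0.485 CPM (0.242 to 0.867). Counting error does not separate these 2 libraries.

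Iapp, the amylin gene, had 0 to 2 reads in every library, and a count of 0 allows up to 3 reads, or 0.0882 to 0.132 CPM. Amylin is made mainly in the pancreas and reaches the organ through blood. Calcb, one of the CGRP genes, stood at 1.21, 0.159, 0.251, 0.176 and 0.928 CPM in Active replicates 1 to 5 and at 0.882, 0.160, 0.221, 0 and 0.323 CPM in IBA replicates 1 to 5. It was high in Active replicates 1 and 5 and IBA replicate 1, and the states overlapped. A two-sided exact permutation test gave p = 0.405, where 5 libraries against 5 can give 0.00794 at the least. No gene was listed under the symbol of Calca, the other CGRP gene, so it was not analysed here.

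**Figure D4:**
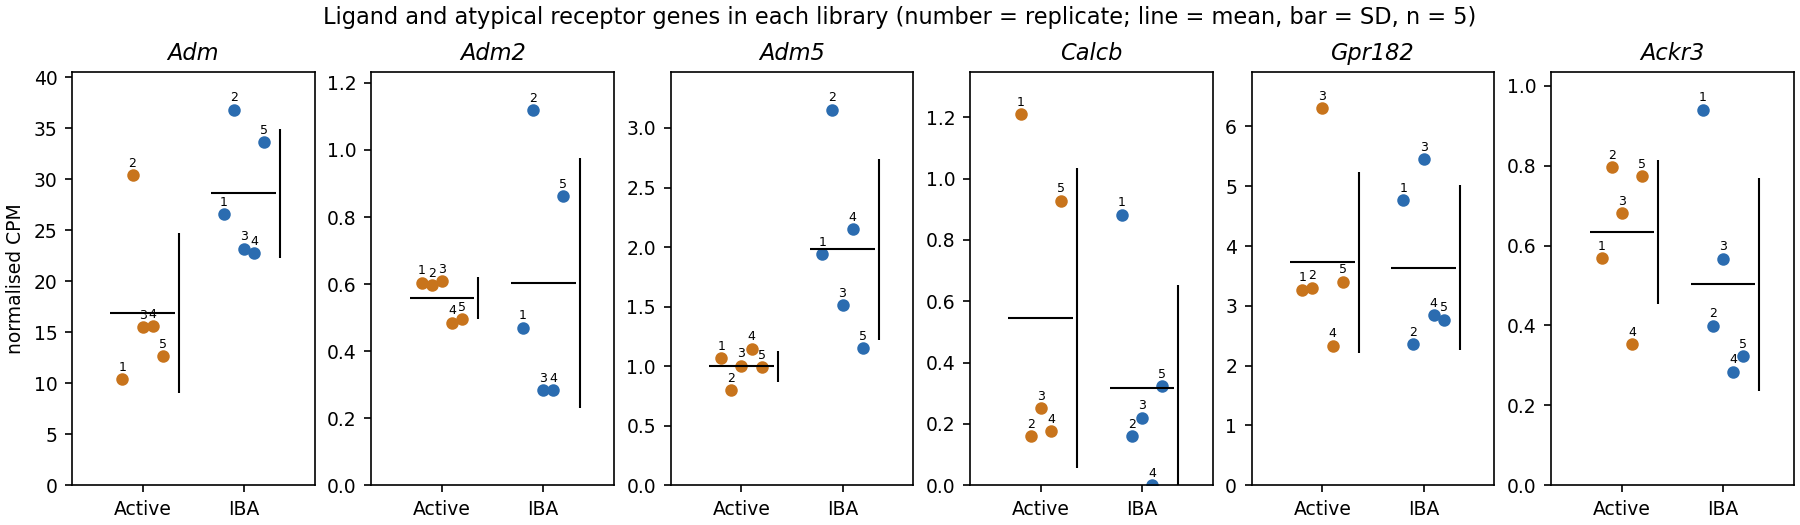
Normalised CPM (y axis, from 0, own scale per panel) of ligand genes Adm, Adm2, Adm5 and Calcb and of the atypical receptor genes Gpr182 and Ackr3 in each of the 10 libraries, with replicate numbers, the mean as a line and the SD as a bar (n = 5 per state). Adm lies at 22.8 to 36.8 CPM in IBA, with 4 of 5 Active libraries below 16 CPM, and Adm5 in IBA lies above all Active points.

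Atypical receptors, which take up ligands without the usual signalling, did not differ detectably. Gpr182, an endothelial receptor related to the chemokine receptors, spanned 2.34 to 6.31 CPM over the Active libraries and 2.36 to 5.45 CPM over the IBA ones. The limma estimate was -0.03 on the log2 scale, its interval reached from -0.61 to 0.55, and its adjusted p was 0.957. Ackr3, a scavenger of chemokines that also binds adrenomedullin, stood at 0.634 ± 0.181 and 0.503 ± 0.268 CPM (SD, n = 5 each), with a two-sided exact permutation p of 0.333.

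Beyond the receptor complexes, 0 of the tested genes of 4 further pathway lists passed after adjustment in limma, where 0.401% of all genes did. The other fits were read only for the 2 genes of each list with the smallest p, named below. Of these, Pth2r, Rab7a and Rapgef3 passed in other fits. Among all genes tested, DESeq2 called 9.93%. Array weights gave 121 called genes, the replicate block 231, and 245 were called without IBA replicate 5, beside 62 in the main fit. Of the 9 tested relatives in receptor class B1, 4 were higher and 5 lower, with a median log2 difference of -0.23. Pth2r, the receptor for the peptide TIP39, averaged 6.39 ± 2.50 CPM in the Active libraries and 2.14 ± 0.727 CPM in the IBA ones, a log2 difference of -1.35 (SE 0.27, adjusted p = 0.0567 in limma). It passed by DESeq2 (adjusted p = 0.000223), with array weights (0.0426) and without IBA replicate 5 (0.0488), in a range of 0.000223 to 0.176 over 24 alternative settings. Gcgr, the glucagon receptor, was at 2.21 ± 0.924 and 0.911 ± 0.443 CPM (difference -0.95, adjusted p = 0.110). Both lie in the direction of Calcr.

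Of 20 genes for the Gs protein, adenylyl cyclases, protein kinase A and other cAMP effectors, 10 were higher and 10 lower, with a median of 0.01. Those with the smallest p were Rapgef3, a cAMP-activated exchange factor also called Epac, at 40.3 ± 10.3 and 26.0 ± 4.51 CPM (log2 difference -0.60, adjusted p = 0.0940 in limma), and Adcy1, a neuronal adenylyl cyclase, at 3.52 ± 0.878 and 2.15 ± 0.627 CPM (-0.61, adjusted p = 0.130). Rapgef3 passed by DESeq2 (adjusted p = 0.0170, in a range of 0.0170 to 0.286 over 24 alternative settings). Of 13 genes for desensitisation and trafficking, including the receptor component protein gene Crcp, 4 were higher and 9 lower, with a median of -0.14. Rab7a, a late endosome GTPase, had a log2 difference of -1.30 and Rab11a, a recycling endosome GTPase, one of 0.29 (adjusted p = 0.0801 and 0.116 in limma). Rab7a passed by DESeq2 (adjusted p = 0.0132), with the replicate block (0.0380) and without IBA replicate 5 (0.0447), in a range of 0.0132 to 0.299 over 24 alternative settings. Of 6 genes for peptide processing and breakdown, 4 were higher and 2 lower, with a median of 0.14. The prohormone convertase genes Pcsk1 and Pcsk2 had log2 differences of 0.76 and 0.39 (adjusted p = 0.108 and 0.222 in limma).

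Calcrl and its RAMPs had correlations below 0 over the 10 libraries. After the mean of each state was removed, the Pearson correlation of Calcrl over the 10 libraries was -0.45 with Ramp1, -0.29 with Ramp2 and -0.17 with Ramp3 (Spearman -0.44, -0.43 and -0.12). That of Calcr was 0.43 with Ramp1 and 0.26 with Ramp3 (Spearman 0.50 and 0.27). Without the 2 libraries farthest from the median in one gene or the other, Calcr had 0.51 or 0.24 with Ramp1 and 0.65 or 0.68 with Ramp3. Calcrl then had -0.25 or -0.24 with Ramp1, -0.19 or 0.08 with Ramp2, and -0.12 or -0.06 with Ramp3. The closest pair was Ramp2 and Ramp3, with 0.76 (Spearman 0.56, and 0.59 and 0.90 without the 2 libraries farthest from the median in Ramp2 or in Ramp3). By this measure Ramp3 ranked 488 of 15444 genes in likeness to Ramp2. The values of a library share its dissection and depth, so these correlations are descriptions with no test.

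Correlations with marker genes of cell types differed among the members in the same libraries. Calcrl correlated positively with 6 of 8 fibroblast and leptomeningeal markers (median 0.44, and 0.43 without Active replicate 4) and with 12 of 14 endothelial markers (median 0.30), while Ramp1, Ramp2 and Ramp3 correlated positively with 2 of 14 each (medians -0.48, -0.34 and -0.46), beside medians of -0.02 to 0.05 over all genes. Ramp3 and Ramp1 correlated positively with all 10 general neuron markers (medians 0.50 and 0.43), and Calcr with 9 of 10 (0.37). Calcr also had medians of 0.32 with fibroblast and leptomeningeal markers (6 of 8 positive) and 0.27 with astrocyte markers (5 of 7 positive). With the 6 tested markers of subfornical neurons the medians were 0.49 for Ramp3 and 0.20 for Ramp1 (5 of 6 positive each). Calcr had a median of 0.01 with them (3 of 6 positive). All 5 members correlated negatively with all 10 choroid plexus markers (medians -0.62 for Calcr to -0.23 for Calcrl). Without Active replicate 4 the choroid plexus median of Calcr was -0.29, that of Calcrl with endothelium was 0.36 and that of Ramp3 with neurons 0.50. Calcr then had medians of 0.25 with general neuron markers and -0.13 with subfornical neuron markers (1 of 6 positive). Its medians were then 0.04 with fibroblast and leptomeningeal markers and -0.28 with astrocyte markers.

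**Figure D5:**
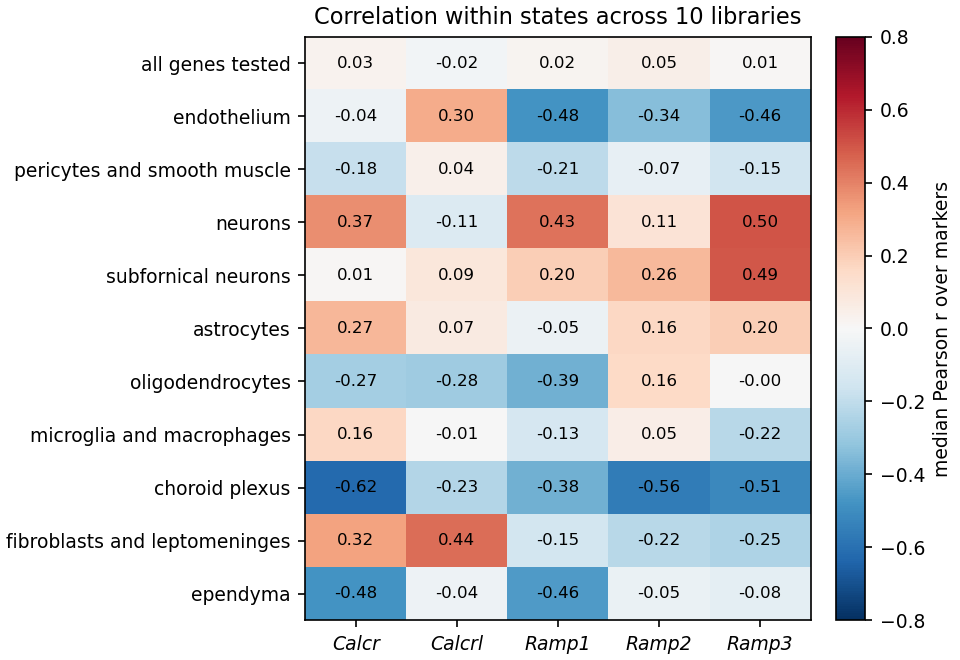
Median Pearson correlation (colour and number) between each of the 5 genes (columns) and the markers of each cell type or all genes tested (rows), over 10 libraries after the mean of each state was removed. Calcrl has its highest median with fibroblast and leptomeningeal markers (0.44), and endothelial markers stand at 0.30 for Calcrl and at -0.34 to -0.48 for the 3 RAMPs, and general neuron markers at 0.50 for Ramp3.

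Levels of the same markers were set beside the members' results. General neuron markers summed to 1721 to 2557 CPM in Active and 1762 to 2569 CPM in IBA, with 7 of 10 higher in IBA and none at 0. Endothelial markers summed to 592 to 1080 and 771 to 1037 CPM, with 8 of 14 higher and none at 0. Pericyte and smooth muscle markers, with 9 of 12 lower in IBA, summed to 178 to 292 and 169 to 255 CPM. Their mean log2 level relative to the 10 libraries lay between -0.0037 and 0.45 for Active and between -0.36 and -0.0057 for IBA. The ranges did not overlap, but the nearest libraries, Active replicate 3 (-0.0037) and IBA replicate 4 (-0.0057), were almost level. The part of these cell types in the differences of Ramp3, Calcrl and Calcr was not tested.

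The genes whose levels followed each member most closely were ranked over the 10 libraries by the same measure. For Calcr they were Ankrd34a, Casz1, Grtp1, Nt5c1a and Nrsn1, with Pearson correlations of 0.93 to 0.96. Casz1 encodes a zinc finger transcription factor and Nrsn1 a neuronal vesicle protein. For Calcrl they were Catsperg, Impg2, Primpol, Nr3c1 and Adgrl2 (0.88 to 0.92), of which Nr3c1 is the glucocorticoid receptor gene. For Ramp1 they were Ino80e, Dtd1, Pld3, Pfdn2 and Mlst8 (0.93 to 0.94). For Ramp2 they were Selenoh, Mageh1, Cript, Churc1 and Hmgb1 (0.95 to 0.96). For Ramp3 they were Rnf113a, Pfdn4, Snrpd1, Rwdd2a and Dctn2 (0.96 to 0.98). Pfdn2 and Pfdn4 encode prefoldin subunits, and Snrpd1 a core spliceosome protein. These are the highest of 15444 correlations over 10 libraries and are given with no p.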

How the data were processed

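Per the submitters' processing notes, the tools were R 4.2.1, edgeR 3.38.4, STAR 2.7.7a, Trimmomatic 0.39 and Subread's featureCounts 2.0.1. Build, annotation and strand setting are not given in the sources used here. Overlapping genes may therefore share reads. The deposited values are, per the file headers, normalised CPM of each library and the mean of each state, a signal whose column sums differ between libraries. Their deposited comparison holds, per the file headers, an F statistic (a score), average log2 CPM, the log2 fold change, p-value and FDR.

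All CPM values (100%, within 0.01) were whole multiples of 1 read, which gave the reads. The Poisson intervals and the floors of 3 reads cover counting error only, while the limma intervals rest on the variance between libraries. The main test was limma 3.58.1 (R 4.3.3) on log2(CPM + 0.5), two-sided, without covariates and with a trended prior variance, its p-values adjusted by Benjamini-Hochberg over the 15445 genes averaging 1 CPM or more and a threshold of 0.05. For genes below that filter all 252 assignments of libraries to states were enumerated. On the reads, DESeq2 1.42.0 and edgeR 4.0.16 served as alternatives. Groups came from sample titles, and replicates are described as biological in the design text.

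The members and lists were chosen with earlier results of these data known. Named were the members, ligands, atypical receptors, the 2 genes with the smallest p of each other pathway list, and the 5 genes most like each member. Alternatives changed the pseudocount, filter, scaling, weights, pairing and count model, or left out libraries. Those for genes that are not members and for ratios were added after the data were seen. Names were matched to RefSeq's list for mIctTri1.hap1 (21837 of 25964, and all 5 members). The coordinates in that list served to find genes that overlap the members. Cell type lists whose differences are not described above had these median log2 differences: astrocytes -0.05, oligodendrocytes 0.24, microglia and macrophages 0.42 and choroid plexus -0.23. Those of fibroblasts and leptomeninges were -0.02, of ependyma -0.22 and of subfornical neurons -0.02. Of the 10 microglia and macrophage markers tested, 2 were called higher (P2ry12 and Tyrobp) and 1 lower (Lyve1). Over all genes tested, 0.220% were called higher and 0.181% lower. No other cell type list held a called gene.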

Additional observations from a re-analysis of the deposited data

Results flagged for a closer look

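Among 38 groups of 5 values checked for 1 library far from the rest, 2 stood out, and chance marks about 1 in 20 such groups. Adm in Active replicate 2 was 30.4 CPM, and the next highest Active value was 15.6 CPM. Gpr182 in Active replicate 3 was 6.31 CPM, and the next highest Active value was 3.40 CPM.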

How the results depend on the processing

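Of the 5 members, Calcr, Calcrl and Ramp2 kept their direction and stayed above the threshold of adjusted p in all 24 alternatives (log2 differences of -0.99 to -0.45, 0.31 to 0.55 and 0.01 to 0.41). Ramp3 passed in 1 of 24, DESeq2 (log2 difference 0.61, adjusted p = 0.0310). Ramp1 turned to -0.0073 when all libraries were given one total, and without 1 library it ran from -0.066 to 0.18. The number of genes past the threshold, 62, was 6 with no filter on low values, 121 with array weights, 231 with the replicate block, 1527 by DESeq2, 0 without Active replicates 4 and 5 (2173 at an unadjusted p under 0.05) and 4 to 245 without 1 library. Same-numbered libraries correlated at -0.17 to 0.20 in their deviations. Numbers 1, 2 and 5 were above 0.1 and each Active library matched its own number best, and 3 and 4 were not, so pairing by number was not taken as given. Under the replicate block the log2 difference of Calcr was -0.69 (95% interval -1.15 to -0.23, unadjusted p = 0.00870, adjusted p = 0.0972 in limma), and no member was called. Gpr182 ran from -0.18 to 0.16 without 1 library. Adm2, whose difference was near 0, turned to 0.012 with a pseudocount of 1 and ran from -0.15 to 0.11 without 1 library. Adm5 could not be tested with a filter at 2 CPM. The precision of Calcr is limited by the spread between libraries, which exceeded counting error. Genes under the filter rest on few reads (0 to 34 for Calcb).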

Other observations

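The authors' deposited table gives an average log2 CPM of 2.41 for Calcb, one of the CGRP genes, where edgeR's average over the 10 libraries was -0.90. The gap of 3.31 ranked 15 of 20095 genes averaging 0.1 CPM or more, and the median gap was 0.122 in size. What else went into the authors' average was not tested.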
